A study of Drosophila melanogaster with 6 samples.

Results

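Nucleoporins are the proteins that build the nuclear pore complex, the channel through which RNA and protein pass between nucleus and cytoplasm. The deposited table of 17457 rows held 24 rows whose gene symbol starts with Nup or is Mtor, Gp210, Ndc1, mbo or Rae1. No row carried the symbols mtor, Tpr or Elys. The rule used gene symbols alone and no measured value, and all 24 passed the filter of a mean of at least 1 TPM. The levels come from Drosophila melanogaster ovaries, sequenced as polyA RNA in 2 groups of 3 samples. In the first group the germline driver nanos-gal4 expressed the transgene UASp-Sam-S. In the control group the same driver was combined with the empty docking site of that transgene, so that all 6 samples carried nanos-gal4. Each group had 1 sample in each of 3 numbered batches. The labels used here give no age and no number of flies for a sample, and the replicates may share a stock, so the tests measure the spread between these samples.

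The pore is assembled from modules. A Y-shaped scaffold complex forms its outer rings, an inner ring complex holds the channel proteins, and transmembrane nucleoporins anchor it in the nuclear envelope. Proteins with phenylalanine-glycine (FG) repeats fill the channel and bind the transport receptors. Filaments reach into the cytoplasm and a basket reaches into the nucleus. Fly oocytes are known to store nucleoporins for the rapid nuclear divisions of the early embryo, in part in annulate lamellae, which are stacks of membrane carrying pores in the cytoplasm.

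Values are in TPM, a transcript abundance unit. They are scaled to gene length and to the same total in every sample, so that levels can be compared between genes. They keep no trace of sequencing depth, which is unknown here. Between 7786 and 7911 rows had at least 1 TPM in a sample. Sam-S, which encodes S-adenosylmethionine synthetase and checks the labels, had 1571.93, 1442.66 and 1540.70 TPM with overexpression, against 496.94, 512.27 and 483.27 TPM in controls. The 6 germline markers (vas, nos, osk, grk, aub and orb) were all detected, with a summed level of 1937 to 1985 TPM in the overexpression samples and 1849 to 1874 TPM in controls. Of these 6 markers, 4 were higher in every overexpression sample than in any control (osk, grk, aub and orb), where 6.25% of all rows tested were. The same 4 had unadjusted p-values under 0.05 in limma, as did 6.58% of all rows tested, and 0 of the 6 passed an adjusted p of 0.05. Against these, vas averaged 268.0 TPM with overexpression and 286.7 TPM in controls. The mean of nos was 267.7 TPM with overexpression and 274.5 TPM in controls, and for vas and nos the groups overlapped. Within the sum, osk alone averaged 1041 TPM with overexpression and 955 TPM in controls. The 4 follicle cell markers (tj, Fas3, Yp1 and Cad74A) summed to 2105 to 3253 TPM with overexpression and 2039 to 2369 TPM in controls. Most of that sum was Yp1, which averaged 2635 TPM with overexpression and 2068 TPM in controls. The 4 muscle sheath markers summed to 101 to 155 TPM with overexpression and 107 to 147 TPM in controls. In whole ovaries, fewer cells of a type and less RNA per cell cannot be told apart, and the part of these markers in the values below was not tested.

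None of the 24 nucleoporin genes passed the test for a change with Sam-S overexpression. In a limma fit over the 7855 rows with a mean of at least 1 TPM, 0 of the 24 had an adjusted p under 0.05, where 22 of all rows tested did (0.28%). At an unadjusted p under 0.05 the count was again 0 of 24, against 6.58% of all rows tested, and the smallest adjusted p of a nucleoporin was 0.913 (Nup54). The log2 fold changes, overexpression over control, ran from -0.091 for Nup154 to 0.052 for Gp210. Their median was -0.028, beside -0.012 over all rows tested, and 17 of the 24 were below 0 (70.8%), beside 56.0% of all rows tested. Under quantile normalization the split was 13 below and 11 above, and without control replicate 3 it was 12 and 12, with a median of 0.0052.

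The intervals bound the size of the differences. All 24 of the 95% intervals held 0. The lowest bound was a log2 fold change of -0.24 (Nup154, a difference of -15.4%) and the highest was 0.26 (Nup358, a difference of 20.0%), each on the log2(TPM + 1) scale and for a single gene. In the authors' deposited table the FDR was 1 for every nucleoporin, where 0.699% of its rows had an FDR under 0.05. The log2 fold changes of the 24 in the authors' deposited table ran from -0.085 to 0.061. Both fits rest on the same 6 samples.

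**Figure D1:**
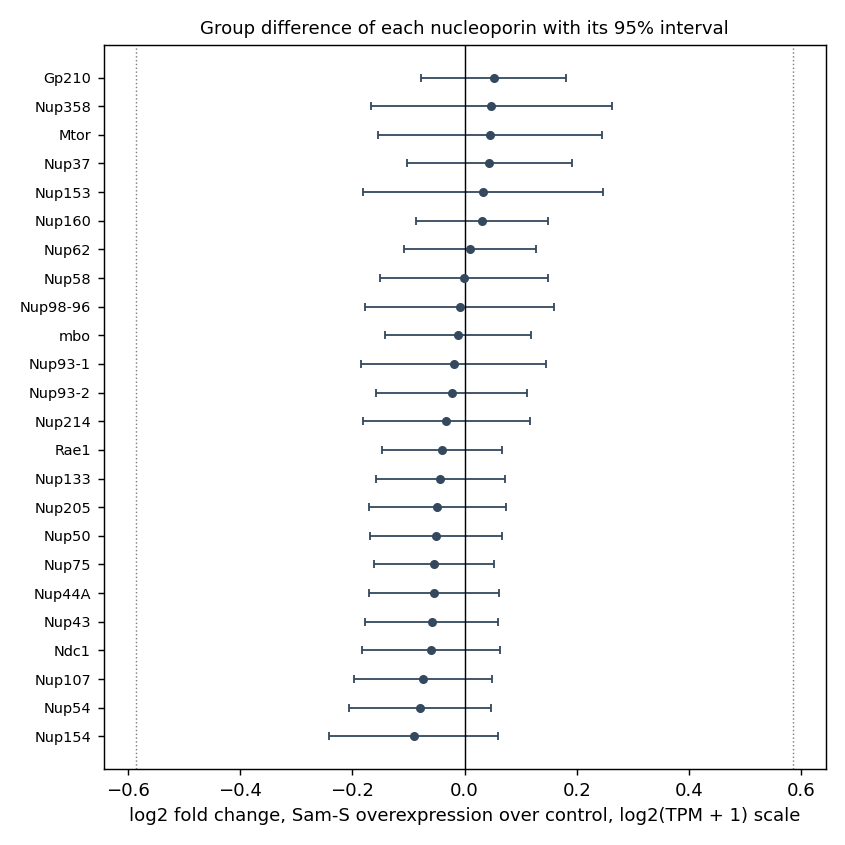
Log2 fold change of each of the 24 nucleoporins (points, Sam-S overexpression over control, log2(TPM + 1) scale) with its 95% interval from limma (bars, n = 3 samples in each group). Dotted lines mark a 1.5-fold difference; no interval reaches them and every interval holds 0.

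All 24 genes were well expressed, within a narrow span of levels. Mean levels over the 6 samples ran from 48.6 TPM for Nup93-2 to 164.3 TPM for Nup358, a 3.38-fold span, and the median nucleoporin had 72.7 TPM. The median of all rows tested was 48.4 TPM, and 37.6% of those rows had a mean inside the span of the nucleoporins. By level, the 24 ranked between position 959 and position 3914 of the 7855. Summed, the 24 rows held 2105.68, 2226.19 and 2090.48 TPM with overexpression, against 2164.31, 2096.50 and 2243.17 TPM in controls. As a share of all TPM this was 0.214% ± 0.0074 with overexpression and 0.217% ± 0.0073 in controls (SD, n = 3 each), and the groups overlapped.

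**Figure D2:**
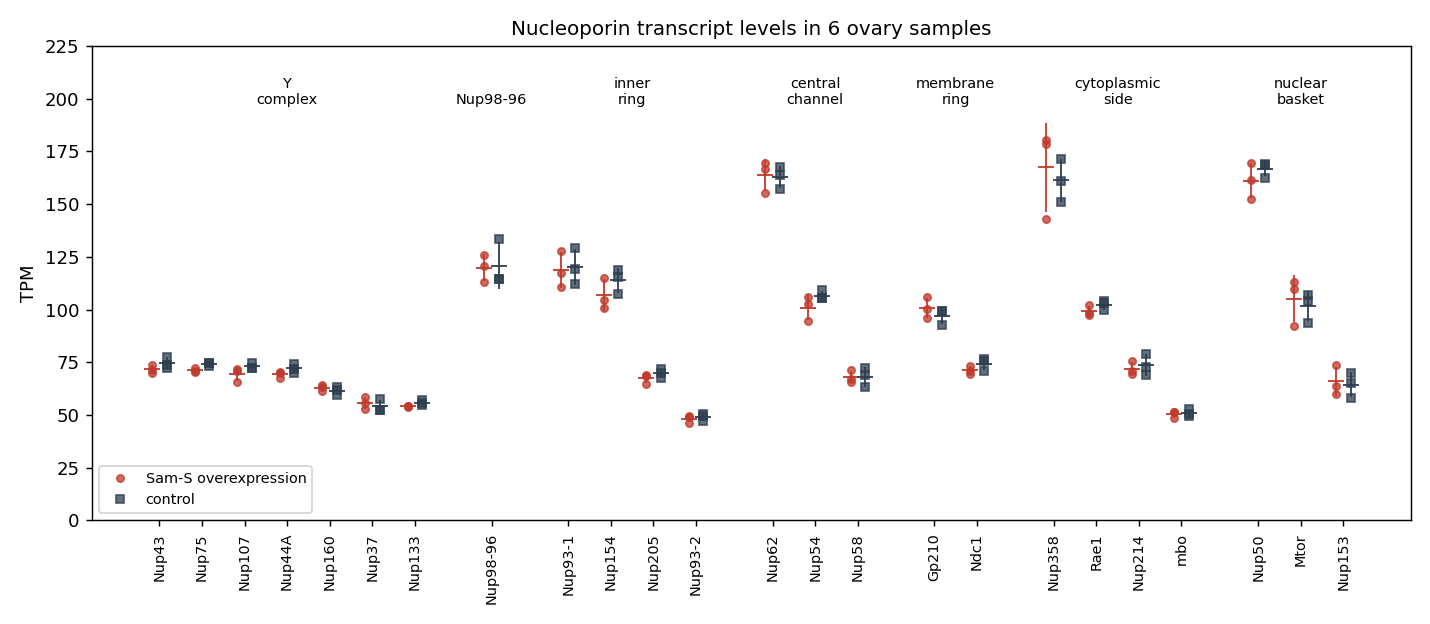
TPM of each nucleoporin in each sample, grouped by module of the pore, for Sam-S overexpression (circles, left of each pair) and control (squares, right). Horizontal ticks and bars give the mean and SD of 3 samples; Nup358, Nup50 and Nup62 stand near 164 TPM and mbo and Nup93-2 near 50 TPM, and the groups overlap for every gene except Nup107, Nup133 and Nup75.

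The Y complex, also called the Nup107-160 complex, is the scaffold of the outer rings and is needed for pore assembly after mitosis. Its 7 genes taken by the symbol rule had mean levels from 54.9 to 73.1 TPM, a 1.33-fold span. Among modules with 3 or more genes of the rule, that is the narrowest. The others spanned 2.40-fold to 3.25-fold. The span leaves out Nup98-96, counted apart, which averaged 120.3 TPM and also encodes the Y complex subunit Nup96. It also leaves out Sec13, a Y complex subunit outside the rule, which averaged 159.6 TPM. With either gene the span would be wider, so its narrowness depends on the grouping. Nup43, a propeller-shaped subunit, had 71.28, 69.95 and 73.61 TPM with overexpression, against 72.45, 73.86 and 77.66 TPM in controls. Nup75, the fly counterpart of vertebrate Nup85, had 70.88, 70.51 and 72.38 TPM with overexpression, against 74.44, 73.04 and 74.59 TPM in controls. The groups overlapped for Nup43 and did not overlap for Nup75, whose log2 fold change was -0.054 (SE 0.046, limma adjusted p = 0.935).

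The same held for a pair of other Y complex scaffold genes. Nup107 had 71.68, 70.63 and 65.78 TPM with overexpression, against 72.25, 72.42 and 74.51 TPM in controls (log2 fold change -0.075, SE 0.053, limma adjusted p = 0.921). Nup133, the lowest gene of the complex, had 54.42, 53.67 and 54.05 TPM with overexpression, against 57.04, 55.48 and 54.72 TPM in controls (log2 fold change -0.044, SE 0.050, limma adjusted p = 0.948). For Nup107 and Nup133 every overexpression sample was below every control, by less than 1 TPM at the closest. Nup107, Nup133 and Nup75 were the only nucleoporins whose groups did not overlap, 3 of 24 (12.5%) with overexpression lower, where 5.6% of all rows tested were separated in that direction. In the other direction the count was 0 of 24, against 6.25% of all rows. The separation depended on the scaling: with samples rescaled by a trimmed mean of log ratios, Nup75 and Ndc1 were separated as lower and Gp210 as higher, where 7.92% of all rows were separated as lower and 6.10% as higher. With quantile normalization 0 nucleoporins were separated as lower and Gp210 alone as higher, where the shares of all rows were 6.87% and 6.15%.

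The remaining Y complex genes showed no common direction. Nup160, a large scaffold subunit, averaged 62.9 ± 1.41 TPM with overexpression and 61.6 ± 1.74 TPM in controls. Nup37, a small propeller subunit, averaged 55.8 ± 2.80 TPM with overexpression and 54.1 ± 2.89 TPM in controls. It was the single nucleoporin of the 24 higher within all 3 batches, where 11.9% of all rows tested were. Nup44A, the fly Seh1, which also belongs to the GATOR complex that controls growth signalling and is needed in the fly female germline, averaged 69.4 ± 1.50 TPM with overexpression and 72.1 ± 2.14 TPM in controls (SD, n = 3 each, for these 3 genes). The limma adjusted p was 0.963 for Nup160, 0.954 for Nup37 and 0.948 for Nup44A.

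Nup98-96 encodes a precursor that is cut into Nup98, a mobile FG repeat protein, and Nup96, a further Y complex subunit. Its row cannot separate the products. It had 120.71, 125.62 and 113.08 TPM with overexpression, against 114.50, 114.23 and 133.56 TPM in controls. The control range held the whole overexpression range apart from 113.08 TPM, and the log2 fold change was -0.0089 (SE 0.073, limma adjusted p = 0.995). The level stood above that of every Y complex gene taken by the symbol rule in every sample, and below that of Sec13.

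The inner ring links the outer rings to the channel. Its Nup93 subunit is encoded by a pair of paralogs in flies. Nup93-1, on the X chromosome (13822826 to 13825910, plus strand), had 110.64, 127.64 and 117.45 TPM with overexpression, against 119.09, 112.31 and 129.17 TPM in controls. Nup93-2, on 3R (14895703 to 14898372, minus strand), had 46.26, 49.66 and 48.83 TPM with overexpression, against 47.04, 49.66 and 50.44 TPM in controls. Nup93-1 was the major transcript in each of the 6 samples. The ratio of Nup93-1 to Nup93-2 was 2.46 ± 0.099 with overexpression and 2.45 ± 0.17 in controls (SD, n = 3 each), so the balance of the paralogs differed by less than the replicate spread.

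The other inner ring genes of the rule are large scaffolds. Nup154, the fly counterpart of vertebrate Nup155 and a gene required for fly oogenesis and spermatogenesis, had 100.77, 115.16 and 104.71 TPM with overexpression, against 115.29, 107.32 and 118.85 TPM in controls. At -0.091 its log2 fold change was the lowest of the 24 (SE 0.065, limma adjusted p = 0.922). One overexpression sample, replicate 2, stood above a control, and within batches the log2 difference was -0.19, 0.10 and -0.18. Nup205 averaged 67.4 ± 2.29 TPM with overexpression and 69.7 ± 2.21 TPM in controls (SD, n = 3 each, limma adjusted p = 0.948). All 4 inner ring genes of the rule had a log2 fold change below 0, with a median of -0.036, beside 56.0% of all rows tested. Under quantile normalization Nup93-1 was above 0 (0.010). Outside the rule, the inner ring genes Nup188 and Nup35 had log2 fold changes of 0.0065 and -0.029.

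The central channel is lined by a complex of 3 FG repeat proteins, Nup62, Nup58 and Nup54, which form the permeability barrier. Nup62 had 155.41, 169.39 and 166.49 TPM with overexpression, against 167.39, 157.03 and 163.64 TPM in controls. Nup54 had 94.52, 105.76 and 102.49 TPM with overexpression, against 105.26, 105.57 and 109.03 TPM in controls. Nup58 had 65.62, 67.02 and 71.18 TPM with overexpression, against 68.82, 63.11 and 72.14 TPM in controls. The order Nup62, Nup54, Nup58 was the same in all 6 samples, and the groups overlapped for each gene. Of the 24 nucleoporins, Nup54 had the smallest limma adjusted p, 0.913, at a log2 fold change of -0.080 and an SE of 0.055.

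The membrane ring is represented by Gp210 and Ndc1, which span the envelope at the pore. Gp210 had 95.92, 105.80 and 100.39 TPM with overexpression, against 99.45, 92.66 and 99.13 TPM in controls. Ndc1 had 69.28, 70.86 and 73.09 TPM with overexpression, against 76.47, 70.68 and 75.35 TPM in controls. The log2 fold change was 0.052 for Gp210, the highest of the 24 (SE 0.056, limma adjusted p = 0.948). For Ndc1 it was -0.060 (SE 0.053, limma adjusted p = 0.944). For both genes the groups overlapped in the deposited TPM.

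On the cytoplasmic side, Nup358 (RanBP2), the large filament protein that binds Ran and takes part in forming annulate lamellae in fly oocytes, had the highest mean level of the 24, 164.3 TPM, next to 164.0 TPM for Nup50 and 163.2 TPM for Nup62. It had 178.64, 180.38 and 143.09 TPM with overexpression, against 160.92, 151.22 and 171.42 TPM in controls. The overexpression samples included both the highest and the lowest of its 6 values, and the log2 fold change was 0.048 (SE 0.093, limma adjusted p = 0.968). Nup358 lies on 3R (25249348 to 25258672, plus strand), 247 bp downstream of Nup37 on the same strand, and its level was 3.01 ± 0.40 times that of Nup37 with overexpression and 2.99 ± 0.32 times in controls (SD, n = 3 each).

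Rae1, which acts with Nup98 in mRNA export, had 98.55, 102.18 and 97.63 TPM with overexpression, against 99.59, 104.07 and 103.32 TPM in controls. The gene mbo (members only) encodes Nup88, which holds the export receptor CRM1 at the pore, and had 48.39, 51.38 and 51.35 TPM with overexpression, against 50.23, 49.43 and 52.75 TPM in controls. The partner of Nup88, Nup214, averaged 71.9 ± 3.03 TPM with overexpression and 73.7 ± 5.07 TPM in controls (SD, n = 3 each). Groups overlapped for all 3 genes, although Rae1 was lower within each of the 3 batches. The limma adjusted p-values were 0.948 for Rae1, 0.994 for mbo and 0.968 for Nup214.

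In the nuclear basket, Mtor (Megator, the fly Tpr) forms the filaments and Nup153 tethers them to the ring. Mtor had 109.65, 113.21 and 92.32 TPM with overexpression, against 103.96, 93.70 and 107.04 TPM in controls. Nup153 had 63.89, 73.63 and 60.06 TPM with overexpression, against 65.17, 58.01 and 69.75 TPM in controls. Nup50, which helps to release cargo from importin, had 152.63, 169.48 and 161.28 TPM with overexpression, against 169.16, 162.60 and 168.76 TPM in controls. Overexpression replicate 3 and control replicate 2 were the lowest samples for both Mtor and Nup153, so each group held a low sample. The groups overlapped for both genes. The limma adjusted p-values were 0.968 for Mtor, 0.978 for Nup153 and 0.948 for Nup50.

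Samples of 1 group stood apart from each other over many nucleoporins at once. Control replicate 3 was the highest of the 6 samples for 12 of the 24 genes and overexpression replicate 2 for 8. Overexpression replicate 1 was the lowest for 8 genes, overexpression replicate 3 for 6 and control replicate 2 for 5. Within batch 1, 17 genes were lower with overexpression and 7 higher, with a median log2 difference of -0.034. Within batch 2, 7 were lower, 16 higher and 1 equal, with a median of 0.057. Within batch 3, 21 were lower and 3 higher, with a median of -0.071. Over all rows tested the medians had the same signs, at -0.067, 0.055 and -0.022 for batches 1, 2 and 3. The share of all rows lower with overexpression was 63.9%, 32.9% and 57.1% in batches 1, 2 and 3. The genes lower within all 3 batches were Nup107, Nup133, Nup75, Nup43 and Rae1, 5 of 24, where 11.8% of all rows tested were lower in all 3.

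**Figure D3:**
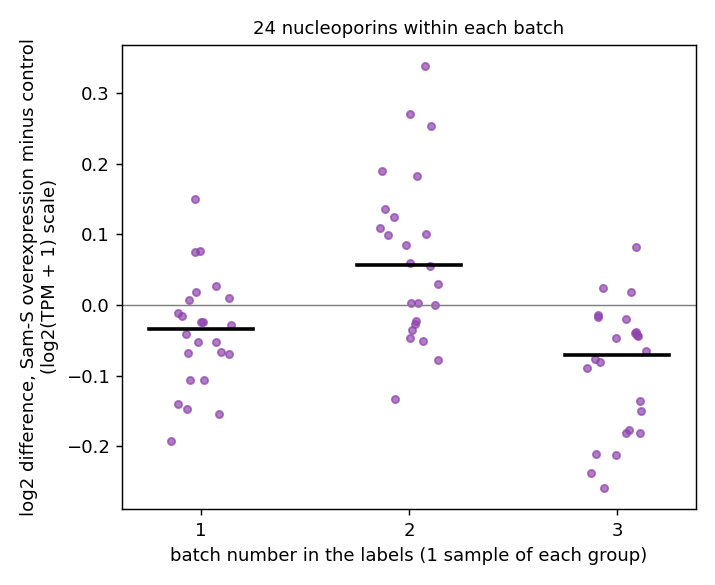
Log2 difference of each of the 24 nucleoporins (points, Sam-S overexpression minus control, log2(TPM + 1) scale) within each numbered batch, which holds 1 sample of each group. Black bars are medians, at -0.034, 0.057 and -0.071, so batch 2 lies on the other side of 0 from batches 1 and 3; points are spread sideways only to separate them.

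The sample-to-sample spread was compared between classes of transcript length. The 8 nucleoporins with an annotated transcript of at least 5000 bp (Nup98-96, Nup205, Nup154, Gp210, Nup358, Nup214, Mtor and Nup153) had a coefficient of variation over the 6 samples from 3.48% to 9.22%, with a median of 6.58%. For the 8 between 2000 and 5000 bp the median was 3.24%, and for the 8 under 2000 bp it was 3.78%. The 3 most variable genes, Nup358, Nup153 and Mtor, were also those with transcripts of 7780 bp or more, apart from Gp210 (7801 bp), whose coefficient was 4.48%. In the long class the median deviation from the 6-sample mean was -0.0079, 0.081 and -0.083 (log2) in overexpression replicates 1, 2 and 3, against 0.0046, -0.083 and 0.086 in control replicates 1, 2 and 3. In the short class it was -0.048, -0.00010 and 0.010 with overexpression, against 0.0031, 0.0018 and 0.038 in controls. Over all genes, the 889 long rows had medians of -0.0010, 0.086 and -0.036 with overexpression, against -0.021, -0.078 and 0.055 in controls. The same samples thus stood high and low among long transcripts in general. The pattern was in part shared by rows of middle length. The 3001 rows between 2000 and 5000 bp had medians of -0.062, 0.025 and 0.024 with overexpression, against 0.018, -0.048 and 0.050 in controls. Over all rows the median residual SD within groups (log2) was 0.108 in the long class, 0.089 in the middle class and 0.097 in the short class. Among the nucleoporins it was 0.096, 0.049 and 0.053. Whether transcript length or RNA quality accounts for the spread of the long nucleoporins was not tested.

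**Figure D4:**
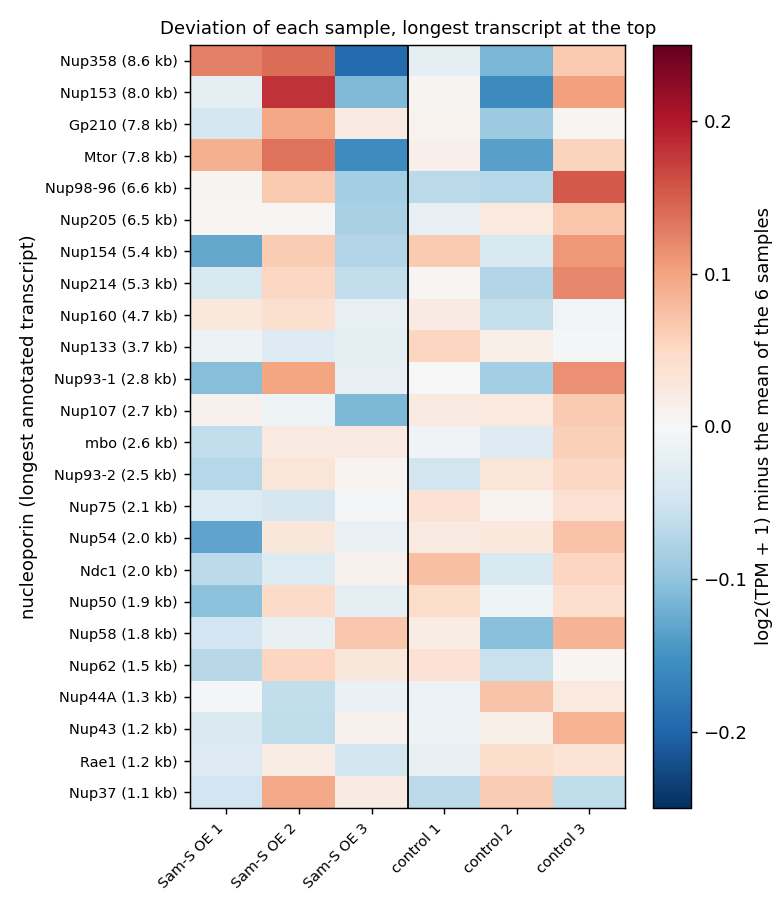
Deviation of each sample from the 6-sample mean (colour, log2(TPM + 1) scale) for the 24 nucleoporins, ordered by longest annotated transcript from the top, with Sam-S overexpression left of the line and controls right. By median, the 8 long genes at the top are high in overexpression replicate 2 and control replicate 3 (0.081 and 0.086) and low in overexpression replicate 3 and control replicate 2 (-0.083 in each).

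The spread between samples of a group was summarised by the residual SD. Its median over the 24 was 0.057 on the log2 scale, beside 0.080 for the 2956 rows in the same span of levels, and 16 of the 24 were under that value, the median of those rows. In position, 9 of the genes lay on 2R, 9 on 3R, 3 on 2L, 3 on X and 0 on 3L, where 3L held 19.1% of the rows tested. For 10 of the 24, annotated exons overlap another gene, in 9 cases on the opposite strand, and the strand setting of the authors' counting is not given in the sources used here. The widest overlaps were those of Nup93-2 with CG14860 (688 bp, 27.6% of its exon bases) and of Nup154 with Art8 (1077 bp, 19.9%). CG14860 averaged 8.58 TPM and Art8 averaged 37.1 TPM over the 6 samples, so the levels of Nup93-2 and Nup154 carry that uncertainty.

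A further 3 pore proteins are listed under CG symbols, outside the symbol rule. Elys, which starts pore assembly on chromatin, was listed as CG14215 and had 39.37, 40.35 and 37.30 TPM with overexpression, against 38.00, 37.66 and 45.07 TPM in controls. The inner ring genes Nup35, listed as CG6540, and Nup188, listed as CG8771, averaged 90.8 ± 5.85 and 46.1 ± 4.72 TPM with overexpression, against 92.6 ± 1.19 and 45.8 ± 1.13 TPM in controls (SD, n = 3 each). These 3 were looked up by FlyBase identifier after the table had been seen. By mean level Elys and Nup188 stood below all 24 nucleoporins of the rule and Nup35 inside their range, and the smallest limma adjusted p of the 3 was 0.968.

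The machinery that works with the pore was examined through 6 lists of 58 rows: 3 other pore proteins, the Ran cycle, importins, exportins, mRNA export factors, and the lamina and envelope. Of these, 56 were tested, 0 changed at an adjusted p under 0.05 (0.28% of all rows did), and 3 had an unadjusted p under 0.05, as did 6.58% of all rows (limma). The groups did not overlap for 3 rows with overexpression lower (RanBP3, Ote and baf) and 3 with overexpression higher (Kap-alpha1, PCID2 and xmas-1), beside 5.6% and 6.25% of all rows tested. The median log2 fold change of the 56 was -0.024, with 32 below 0 and 24 above, beside a median of -0.012 and 56.0% below 0 over all rows tested. Ran-like, a Ran relative, and spag4, a SUN protein, were listed at 0 in all samples.

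The Ran cycle sets the direction of transport through the pore. All 6 tested rows of its list had a log2 fold change below 0, beside 56.0% of all rows tested. The median of the 6 was -0.066, beside -0.012 over all rows tested. Within batch 2, Ran, Rcc1, RanGAP and RanBPM were higher with overexpression (log2 differences of 0.053, 0.073, 0.032 and 0.070), and RanBP3 and Ntf-2 were lower. Under quantile normalization 5 of the 6 were below 0 and Rcc1 was above, with a median of -0.043. RanBP3, a cofactor of the export receptor CRM1, had 133.89, 142.80 and 141.27 TPM with overexpression, against 154.23, 146.91 and 157.87 TPM in controls, with no overlap (log2 fold change -0.13, SE 0.049, limma adjusted p = 0.624). Among 13 importins 9 were above 0 and 4 below (10 and 3 under quantile normalization), and among 5 exportins 4 were above and 1 below.

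In the list of 17 mRNA export rows, 12 were below 0 and 5 above (10 and 7 under quantile normalization). The 5 above were sbr, PCID2, xmas-1, nxf2 and nxf3. A role in mRNA export was not tested for any row of the list. PCID2, a subunit of the TREX-2 complex that docks at the nuclear basket, had 47.05, 46.01 and 48.73 TPM with overexpression, against 44.24, 42.20 and 42.60 TPM in controls, again with no overlap (log2 fold change 0.13, SE 0.055, limma adjusted p = 0.736). The row xmas-1 had 3.50, 2.86 and 2.96 TPM with overexpression, against 1.52, 2.36 and 1.54 TPM in controls (log2 fold change 0.56, SE 0.17, limma adjusted p = 0.519). In the authors' deposited table its log2 fold change was 0.77 and its FDR 0.0504. Its neighbour xmas-2, which the Ensembl annotation joins with xmas-1 into the single TREX-2 gene xmas, averaged 32.5 ± 3.48 TPM with overexpression and 34.3 ± 2.01 TPM in controls (SD, n = 3 each). The spans of xmas-1 and xmas-2 overlap on X in the deposited table, so the level of xmas-1 is uncertain. Among the 12 lamina and envelope rows tested, 6 were above 0 and 6 below.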

How the data were processed

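Trizol RNA from ovaries was made into stranded polyA libraries, per the labels' protocols. The authors deposited 1 table with a TPM column per sample, rounded to 2 decimals; STAR is named in the submitters' processing notes, and the version, counting method, build and annotation are not given in the sources used here. The same deposited table holds the authors' log2 fold change, p-value and FDR for each row. Columns summed to between 999999.74 and 1000000.24.

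Groups and replicate numbers came from the sample titles. Values were tested as log2(TPM + 1) in limma 3.58.1 (R 4.3.3; lmFit, eBayes with trend), with 1 group term, on the rows averaging 1 TPM or more; the p-values are two-sided, with Benjamini-Hochberg adjustment over all 7855 rows, and an adjusted p under 0.05 is called changed. A fold change on this scale understates that of low genes. The fit was tested on simulated data. Intervals are 95% limma intervals. Coordinates in the table equal those of the Ensembl BDGP6.54 annotation for all 24 genes, and transcript lengths are those of the longest annotated transcript. Tables and plots used Python 3.11.15, pandas 2.3.3, numpy 2.4.6 and matplotlib 3.10.9.

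The labels give each replicate number as a batch number, so same-numbered samples were treated as paired in an alternative fit. Across genes with a mean of at least 5 TPM, deviations of same-numbered samples from their group means had correlations of -0.023, -0.13 and 0.40 for numbers 1, 2 and 3; samples of different number reached 0.43 (overexpression 1 and control 2). Other alternatives were no filter, a filter at a mean of 5 TPM, a pseudocount of 0.1, quantile normalization, samples rescaled with a trimmed mean of their log ratios, no trend, and leaving out each sample. No pair of samples shared the same value in more than 0.382% of rows.

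The genes and lists were chosen with earlier results of these data known. Values in every sample are given for the 2 highest and the lowest gene of each module, nucleoporins whose groups did not overlap, the Nup93 paralogs, and listed companion genes with an unadjusted p under 0.05; Sam-S checks the labels. The values of xmas-2, Elys, Nup35 and Nup188 were added after these were seen.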

Additional observations from a re-analysis of the deposited data

How the results depend on the processing

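Under all 13 alternatives 0 of the 24 nucleoporins changed, as in the fit reported, 0 genes of the 6 companion lists changed, and the smallest adjusted p of any nucleoporin was 0.642 (limma). At an unadjusted p under 0.05 (limma) the count was 0 of 24 in each alternative except 1 of 24 without overexpression replicate 3. In that setting 7.43% of all rows tested were under 0.05. Across the alternatives that share ran from 3.97% to 8.22%. Over all rows, 13 changed with no filter on low values, and from 11 to 27 when a sample was left out, the lowest without control replicate 1 (the 14 without control replicate 3 also lie over 1.5 times below the 22). The replicate block fit, with samples paired by batch number, gave 16 changed rows and 0 changed nucleoporins, and altered no nucleoporin call.

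Directions of single nucleoporins were not stable. Trimmed mean scaling turned Nup58 to 0.0025 (log2 fold change), and quantile normalization turned Nup98-96 to 0.013, Nup93-1 to 0.010, Nup58 to 0.021 and mbo to 0.0051. Leaving out a sample turned the sign of 10 genes at least once, over ranges from -0.073 to 0.033 for Nup93-1, -0.052 to 0.0063 for Nup93-2, -0.053 to 0.042 for Nup58, -0.0097 to 0.16 for Nup358, -0.031 to 0.016 for mbo, -0.016 to 0.046 for Nup62, -0.011 to 0.13 for Mtor, -0.049 to 0.096 for Nup153, -0.047 to 0.065 for Nup98-96 and -0.077 to 0.019 for Nup214. The median over the 24 ran from -0.047 to 0.0052, and the log2 ratio of summed TPM, -0.018 as reported, ran from -0.047 to 0.0070, above 0 without control replicate 3 and under quantile normalization (0.0044). Of the 3 genes lower without overlap, Nup75 alone was so after trimmed mean scaling, where Ndc1 joined it (2 genes), and the count was 0 after quantile normalization; Gp210 was higher without overlap under both. These checks, and the directions of the companion lists under both scalings, were chosen after seeing the data. The cause was not tested. Depth is unknown, so counting error cannot be set against these spreads.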

Other observations

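Ratios between nucleoporins cancel the scaling of a sample, and 9 such ratios were computed after the levels had been seen. In 8 of them the groups overlapped, and 1 of 9 did not, where among single rows tested 5.6% were separated as lower and 6.25% as higher. Those shares are for single genes, none was computed for ratios, and several of the 9 share a gene. The exception was Nup62 over Nup54, partners in the central channel, at 1.64, 1.60 and 1.62 with overexpression, against 1.59, 1.49 and 1.50 in controls. Nup62 averaged 163.8 ± 7.38 TPM with overexpression and 162.7 ± 5.25 TPM in controls, and Nup54 averaged 100.9 ± 5.78 TPM with overexpression and 106.6 ± 2.09 TPM in controls (SD, n = 3 each). Neither gene changed in limma (adjusted p = 0.995 for Nup62 and 0.913 for Nup54), and the ratio was not tested because it was picked from 9. Part of the exons of Nup54 (218 bp, 10.6%) overlaps CG43204 on the opposite strand, which averaged 0.048 TPM.

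The basket genes Mtor and Nup153 both have long transcripts. The ratio of Mtor to Nup153 was 1.72, 1.54 and 1.54 with overexpression, against 1.60, 1.62 and 1.53 in controls. Its means were 1.60 ± 0.10 with overexpression and 1.58 ± 0.042 in controls (SD, n = 3 each). Each gene had a coefficient of variation over 8% across the 6 samples. Nup50 over Nup153, a short transcript over a long one in the same module, was 2.46 ± 0.20 with overexpression and 2.61 ± 0.19 in controls (SD, n = 3 each).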
